A study of Mus musculus with 6 samples.

Results

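The immunity-related GTPases (IRGs) are dynamin-like GTPases whose genes interferons switch on in mouse cells. The 7 genes Igtp, Irgm1, Irgm2, Iigp1, Tgtp1, Tgtp2 and Ifi47 were taken by name, as members of this family, from 32049 target genes in 2 tables of predicted enhancer-promoter connections. All 7 genes were in the gene annotation, and 4 of them, Igtp, Irgm2, Iigp1 and Tgtp1, had at least 1 element listed in either table. Irgm1, Tgtp2 and Ifi47 had none in either.

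The tables came from oligodendrocyte precursor cells (OPCs), the dividing glial cells that give rise to myelinating oligodendrocytes. They were cultured from pooled brains of pups of both sexes at P4 to P6, labelled C57BL/6j. In their line Sox10-Cre drives a GFP reporter (RCE) in the oligodendrocyte lineage. By the study's methods the RCE animals used to breed it had a mixed C57BL/6xCD1 background. Cells were sorted for Sox10-driven GFP or taken with beads against CD140a, grown with bFGF and PDGF-AA, and replicates came from different litters per the study's methods. From 24 h after passaging, Ctr-OPCs stayed in this medium and IFN-γ-OPCs were given IFN-γ at 100 ng/mL over 48 h. H3K27ac-HiChIP, which records contacts of chromatin that carries an active histone mark, was done on 3 libraries per condition, and all 3 were pooled in 1 table per condition. No value below therefore has a replicate error or a p-value, the read depth is unknown, and each comparison sets 1 pooled table beside another.

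IRG proteins guard the vacuoles in which intracellular parasites and bacteria live. The regulators Irgm1, Irgm2 and Igtp (Irgm3) sit on the membranes of the cell's own organelles and keep the effectors off them, while the effectors Iigp1 (Irga6), Tgtp1 and Tgtp2 (Irgb6) and Ifi47 (Irgd) are loaded on the parasite's vacuole and break it. Their promoters are known targets of IFN-γ through the gamma-activated site (GAS) and the interferon-stimulated response element (ISRE), which IRF proteins bind.

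RefSeq promoters (GRCm38.p6, 250 bases before to 50 after a start) were at hand for 6 of the 7 genes, with Iigp1 missing. GAS was searched as TTCNNNGAA, which reads the same on both strands, and the ISRE core as GAAANNGAAA or, on the other strand, TTTCNNTTTC, where N is any base. GAS matched in 4 of the 6 promoters, those of Igtp, Irgm2, Tgtp1 and Tgtp2, against 8.30% of 32851 RefSeq promoters. The ISRE core matched in 5 of the 6, these 4 and Irgm1, against 3.44% of all promoters. Ifi47 had neither in this window. The last 100 bases before each start show how the matches sit. They lie on the plus strand of chromosome 11 for Igtp (chr11:58199456-58199555), Irgm2 (chr11:58214877-58214976), Ifi47 (chr11:49076487-49076586) and Gm12250 (chr11:58183743-58183842), a further IRG known as Irgb10. They lie on the minus strand for Tgtp1 (chr11:48992247-48992346), Tgtp2 (chr11:49064213-49064312), Irgm1 (chr11:48871421-48871520) and the IRG gene Gm12185 (chr11:48927183-48927282). Each is written 5′ to 3′ along its gene, with GAS and ISRE core matches in capitals.
Igtp: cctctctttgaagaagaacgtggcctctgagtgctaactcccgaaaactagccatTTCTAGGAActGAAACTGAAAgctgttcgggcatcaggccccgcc
Irgm2: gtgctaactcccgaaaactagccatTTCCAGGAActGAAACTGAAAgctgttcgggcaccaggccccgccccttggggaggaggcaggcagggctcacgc
Tgtp1: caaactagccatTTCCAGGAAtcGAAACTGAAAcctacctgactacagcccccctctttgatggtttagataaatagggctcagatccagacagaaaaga
Tgtp2: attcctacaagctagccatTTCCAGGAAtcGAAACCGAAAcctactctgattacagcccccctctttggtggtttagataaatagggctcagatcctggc
Gm12185: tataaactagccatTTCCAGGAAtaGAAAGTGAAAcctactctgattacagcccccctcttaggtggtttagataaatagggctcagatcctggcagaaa
Irgm1: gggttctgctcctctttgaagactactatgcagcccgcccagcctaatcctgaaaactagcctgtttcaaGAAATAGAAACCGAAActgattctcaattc
Gm12250: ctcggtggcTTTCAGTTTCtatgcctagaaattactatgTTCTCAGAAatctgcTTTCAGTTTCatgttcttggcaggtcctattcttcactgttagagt
Ifi47: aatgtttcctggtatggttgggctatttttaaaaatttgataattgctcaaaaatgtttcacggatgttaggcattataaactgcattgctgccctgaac

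In Igtp, Irgm2, Tgtp1, Tgtp2 and Gm12185 the GAS and the ISRE core stood in the same order with 2 bases between them, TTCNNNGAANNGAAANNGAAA. The GAS began 45 bases before the start in Igtp, 75 in Irgm2, 88 in Tgtp1, 81 in Tgtp2 and 86 in Gm12185. Searched on both strands of all 32851 RefSeq promoters, this 21-letter arrangement was found in 5, and the 5 were these genes. The spacing was chosen after the matches had been seen, and the genes belong to the same family, so the 5 are not independent finds. The promoters of Igtp and Irgm2 were identical at 74.3% of aligned positions and those of Tgtp1 and Tgtp2 at 69.8%. No other pair among the 6 genes exceeded 53.4%, and Gm12185 was not aligned. Irgm1 carried 2 overlapping ISRE cores and no GAS, and Gm12250 carried a GAS with an ISRE core on either side.

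The activity-by-contact (ABC) score is the activity of an element (from ATAC-seq and H3K27ac) times its contact with a start site, divided by the sum of this product over all elements of the gene. That sum, called the gene total here, was recovered as the product over the score, and a pair with a score above 0.05 was counted as a connection. In Ctr-OPCs the 7 genes had 3 listed pairs and 0 connections. In IFN-γ-OPCs they had 15 listed pairs and 5 connections, 2 each for Igtp and Irgm2 and 1 for Iigp1. Thus 3 of the 7 genes had more connections with IFN-γ, or 2 with Igtp and Irgm2, which share their elements and contacts, counted once, and none had fewer, where 14.9% of all 32049 target genes had more. These 3 genes also had more listed pairs, as did 42.4% of all genes. Iigp1 was listed in IFN-γ-OPCs alone, as were 19.6% of all genes, and Tgtp1 in Ctr-OPCs alone, as were 17% of all genes. A table lists only scores of 0.02 or more, for genes whose promoter activity ranks at a quantile of 0.4 or more, and no pair that the model classed as promoter. Whether Irgm1, Tgtp2 and Ifi47 missed one of these limits, or both, or were not modelled cannot be read from the tables. In pooled cultures, more cells carrying a signal and more signal per cell cannot be told apart.

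**Figure D1:**
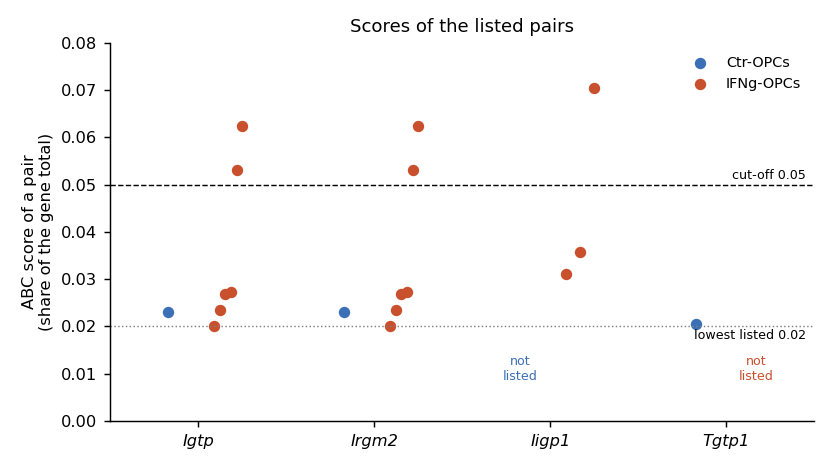
ABC score (share of the gene total, vertical axis) of each listed pair of Igtp, Irgm2, Iigp1 and Tgtp1, in Ctr-OPCs (blue) and IFN-γ-OPCs (orange), with 1 point per element and lines at the cut-off of 0.05 and the lowest listed score of 0.02. The 3 points in Ctr-OPCs lie between 0.0206 and 0.0230, and 5 of 15 points in IFN-γ-OPCs lie above the cut-off.

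Igtp and Irgm2, 2 of the regulators, held 12 of the 15 pairs in IFN-γ-OPCs. They are neighbours on chromosome 11 (GENCODE M21, build GRCm38: Igtp chr11:58199556-58207591 and Irgm2 chr11:58199618-58222782, both on the plus strand), and the start sites that the model used lie 62 bases apart. As contact was binned at 5 kb, both start sites fell in the same bin and the 2 genes received the same elements, contacts and scores, so that they are 1 measurement of contact and not 2. RefSeq places the main start of Irgm2 at position 58214977, 15.4 kb downstream, where its printed GAS and ISRE core lie. Over 20828 protein-coding genes the GENCODE start and the RefSeq start were more than 1 kb apart for 16.8%. For 2.06% the RefSeq start lay more than 10 kb downstream.

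In Ctr-OPCs a single element was listed for these 2 genes. It lay at chr11:58197770-58198619, 1.36 kb before the Igtp start, with an activity of 0.474, at the 14.8th percentile of all elements of its table, and a score of 0.0230. In IFN-γ-OPCs there were 6 elements, 4 intergenic and 2 genic, and none of them overlapped it or any other listed element of Ctr-OPCs. Over all elements, 44.5% of those with IFN-γ overlapped none without it, and 40% the other way round. The activities of the 6 ran from 0.869 to 2.11, at the 54.5th to 89.8th percentile of their table, where the median over all elements was 0.803; the listing limit itself keeps out weak elements.

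The 2 strongest lay upstream of Igtp. The element at chr11:58193364-58193863, 5.94 kb before the Igtp start, had an activity of 1.98 and a score of 0.0623, and that at chr11:58191929-58193129, 7.03 kb before the start, had an activity of 1.69 and a score of 0.0531. Both were connections of Igtp and of Irgm2, and they were the only elements connected with 2 or more of the 7 genes. The central 300 bases of the first (chr11:58193464-58193763, plus strand) are shown because it had the highest score at the locus, with its GAS match in capitals.
Element 5.94 kb before Igtp: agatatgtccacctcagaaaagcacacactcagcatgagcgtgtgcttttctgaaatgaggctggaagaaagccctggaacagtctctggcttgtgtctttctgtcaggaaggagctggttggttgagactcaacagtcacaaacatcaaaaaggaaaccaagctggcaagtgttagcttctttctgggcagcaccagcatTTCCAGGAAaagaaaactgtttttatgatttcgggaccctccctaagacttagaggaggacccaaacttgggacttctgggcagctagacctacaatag

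Next to these stood chr11:58191098-58191834, with an activity of 0.869 and a score of 0.0274. The most active of the 6, at chr11:58183582-58184081 and 15.7 kb before the Igtp start, reached an activity of 2.11 and a score of 0.0269. It covers the RefSeq start of Gm12250, at position 58183843, with the GAS and the 2 ISRE cores printed above. The 2 genic elements lay at chr11:58201213-58202034, over exon sequence of Igtp (activity 1.03, score 0.0235), and at chr11:58208456-58209681, in an intron of Irgm2 as GENCODE draws it (activity 1.59, score just over the limit of 0.02). From the RefSeq start of Irgm2 the last element lies 5.91 kb upstream.

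Counted in the central 500 bases, where 15.2% of the 35906 elements of IFN-γ-OPCs held a GAS and 8.60% an ISRE core, 2 of the 6 elements held a GAS and 1 of them the ISRE core. The other 4 held neither. The Ctr-OPC element held neither as well, where 13.9% and 5.41% of the 33083 elements of that table held them.

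**Figure D2:**
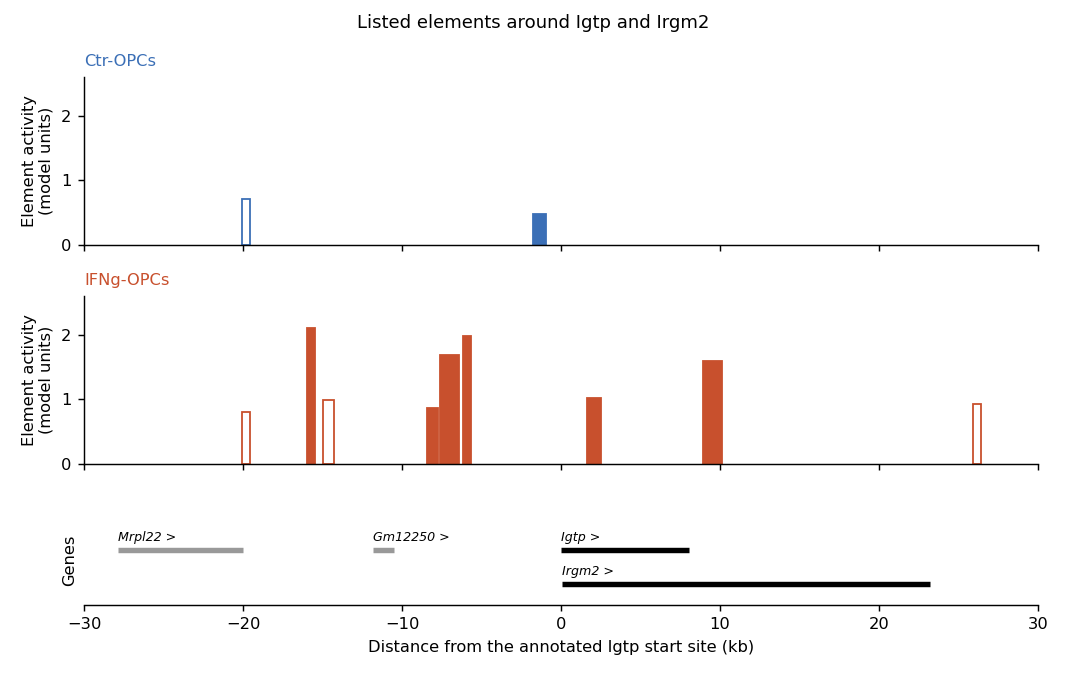
Listed elements within 30 kb of the Igtp start in Ctr-OPCs (upper) and IFN-γ-OPCs (middle), as bars of their width with the element activity in model units as height, above the annotated genes (arrowheads give the strand, the 2 genes of the family in black). Filled bars are elements of Igtp and Irgm2, 1 without IFN-γ and 6 with it, and open bars are elements of other genes.

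The gene total of both genes was 1.06 without and 1.66 with IFN-γ, 1.57-fold higher (log2 ratio 0.65). Among the 20321 genes for which both tables give a total, the median log2 ratio was −0.07, 90% of the ratios lay between −0.29 and 0.30, and 0.615% of genes were at least 1.5-fold higher. The rank of the activity at the start that the model used moved as well. The promoter quantile of Igtp went from 0.735 to 0.945 and that of Irgm2 from 0.732 to 0.946, changes of 0.210 and 0.214, where the 95th percentile over all genes was 0.137. The 2 windows overlap at the Igtp promoter, so these quantiles share reads, and neither was taken at the RefSeq promoter of Irgm2.

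Listed pairs made up 2.30% of the total without IFN-γ and 21.3% with it. The remainder was 1.03 and 1.31. It holds elements classed as promoter, of these or other genes, and other elements scoring under 0.02. As the limit of 0.02 divides the listed from the remaining part, an element can pass from one to the other, and the split does not show where the difference in the total arose. A product of activity and contact of 0.0212 was needed for listing in Ctr-OPCs and one of 0.0333 in IFN-γ-OPCs, so each element listed with IFN-γ exceeds the former limit by construction. The product of the Ctr-OPC element was 0.0244, under the limit with IFN-γ, so its absence there does not show a lower value.

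**Figure D3:**
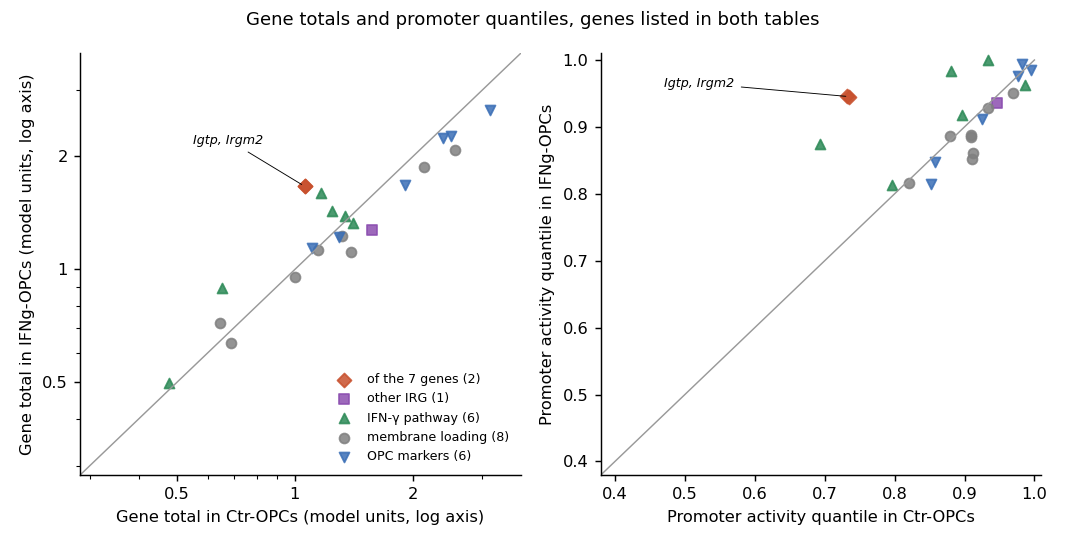
Gene totals (left, model units on log axes) and promoter activity quantiles (right) in Ctr-OPCs against IFN-γ-OPCs for the genes of 5 lists with values in both tables, 1 symbol per gene, with the line of equal values. Igtp and Irgm2 share 1 place above the line in the left panel, at totals of 1.06 and 1.66. In the right panel they lie close together above it. The numbers of genes per list are in the legend.

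Contact was compared with that of other listed pairs at like distance. The 3 elements 5.94 to 8.09 kb before Igtp had a contact of 0.0524, within the middle range of 0.0296 to 0.0532 (25th to 75th percentile) of all listed IFN-γ-OPC pairs at 5 to 10 kb. The element at 15.7 kb had a contact of 0.0212, where the median at 10 to 20 kb was 0.0216. The 2 genic elements were below the middle range of their distances, with 0.0382 against a 25th percentile of 0.0388 at 2 to 5 kb, and 0.0209 against 0.0296 at 5 to 10 kb. Relative to the power law of distance, contacts of the 6 elements were 0.296 to 0.645. On this scale the middle range at 5 to 10 kb was 0.328 to 0.563. The elements at 7.03 kb (0.571) and 8.09 kb (0.645) lay above it, that at 5.94 kb (0.493) within it. The genic element at 9.51 kb (0.296) lay below it. The genic element at 2.07 kb (0.309) was below the 25th percentile of 0.314 at 2 to 5 kb.

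**Figure D4:**
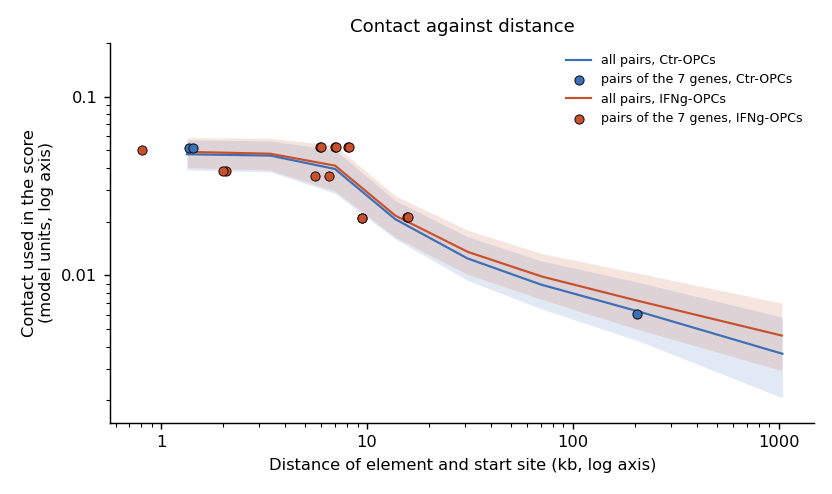
Contact used in the score (vertical, model units) against the distance of element and start site (horizontal, kb), both on log axes. Lines are medians and bands the 25th to 75th percentile of all listed pairs per distance class, drawn through the median distance of each class. Points are the pairs of the 7 genes in Ctr-OPCs (blue) and IFN-γ-OPCs (orange). The 3 elements 5.94 to 8.09 kb from Igtp share a contact of 0.0524, inside the range of the 5 to 10 kb class. As the drawn band falls beyond the median distance of this class, the element at 8.09 kb lies above it.

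Gm12250, between Mrpl22 and Igtp, shared 5 of the 6 elements. GENCODE M21 annotates it as a processed pseudogene starting at 58187739, while the RefSeq start of the protein-coding gene lies 3.90 kb upstream. It was absent in Ctr-OPCs and had 6 listed pairs and 3 connections in IFN-γ-OPCs, with scores of 0.0688, 0.0617 and 0.0723, a total of 1.78 and a quantile of 0.458, which refers to the GENCODE start and not to the RefSeq promoter. The 0.0688 belonged to the element over its own RefSeq start, which the model treated as an enhancer 3.91 kb away. Among all elements, 4.48% of those in the Ctr-OPC table and 4.24% of those in the other overlapped a RefSeq promoter window. Mrpl22, a mitochondrial ribosomal protein gene that shared 1 of the elements, had a total of 1.22 and 1.48 (log2 ratio 0.28).

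Iigp1, the effector Irga6, was absent in Ctr-OPCs, where no element was listed within 100 kb of its start. In IFN-γ-OPCs it had 3 genic elements, all inside the gene on chromosome 18. The element at chr18:60382321-60382820, 6.54 kb after the start that the model used, had an activity of 1.67 and a score of 0.0705, the highest score among the 15 pairs of the 7 genes. Those at chr18:60376587-60377086 and chr18:60381346-60381845 had activities of 0.530 and 0.851 and scores of 0.0312 and 0.0358. The strongest element held a GAS and an ISRE core, and the other two held neither. The gene total was 0.856 and the promoter quantile 0.835, with no counterpart in Ctr-OPCs. RefSeq places the start of Iigp1 2.41 kb upstream of the one that the model used. The quantile was thus not taken at the RefSeq promoter, and from the RefSeq start the 3 elements lie 3.22, 7.98 and 8.95 kb away. The strongest element was also listed for Gm4841, a further gene of the IFN-γ-inducible GTPase group. Contacts were 0.0504 at 0.809 kb from the start of the model, where the median under 2 kb was 0.0491, and 0.0361 for the other two, where the median at 5 to 10 kb was 0.0411.

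Irgm1, Tgtp1, Tgtp2 and Ifi47 lie in a cluster of 235 kb on chromosome 11 (chr11:48861968-49096974), on the minus strand except Ifi47. Inside this span 0 elements were listed without IFN-γ and 4 with it, and none of the 4 had one of the 4 genes as a listed target. None of the 4 overlapped an element of Ctr-OPCs, as was the case for 44.5% of all elements with IFN-γ. The element at chr11:48863526-48864025, in an exon of Irgm1, had an activity of 1.19 and was listed for Trim7 and Gm12184, outside the cluster. The elements at chr11:48926943-48927442 (activity 1.76), chr11:48927938-48928437 (activity 1.67) and chr11:49000308-49000807 (activity 0.356) were listed for Gm12186, a processed pseudogene whose start lies 3.54 kb from that of Tgtp1.

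The first of these covers the RefSeq start of Gm12185, whose promoter is printed above, and the next lies within 1 kb of it. Both hold the GAS and ISRE core with 2 bases between them. Over the central 500 bases of all elements this arrangement was found in 8 of 35906 elements in IFN-γ-OPCs (0.0223%) and in 4 of 33083 in Ctr-OPCs (0.0121%), and 2 of the 8 were these. For Gm12185 the GENCODE start lies 65.0 kb away from that of RefSeq, and the gene was listed in neither table. Gm12186 had 4 pairs in IFN-γ-OPCs alone, scores of 0.0262 to 0.0367, a total of 0.872 and a quantile of 0.725.

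Tgtp1, the only gene of the 4 with a pair, had it in Ctr-OPCs, with an element 206 kb away at chr11:48787799-48789031. Its activity was 1.52 and its contact 0.00611, where the median of Ctr-OPC pairs at 100 to 500 kb was 0.00630. The score of 0.0206 stood just above the limit of 0.02, and the total was 0.452 with a promoter quantile of 0.623. The element was shared with Rack1, Trim41 and 3 small nucleolar RNA genes. An overlapping element was listed in IFN-γ-OPCs with an activity of 1.24, but not for Tgtp1. The Tgtp1 total with IFN-γ is unknown, so this absence does not show a lower input to the gene.

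**Figure D5:**
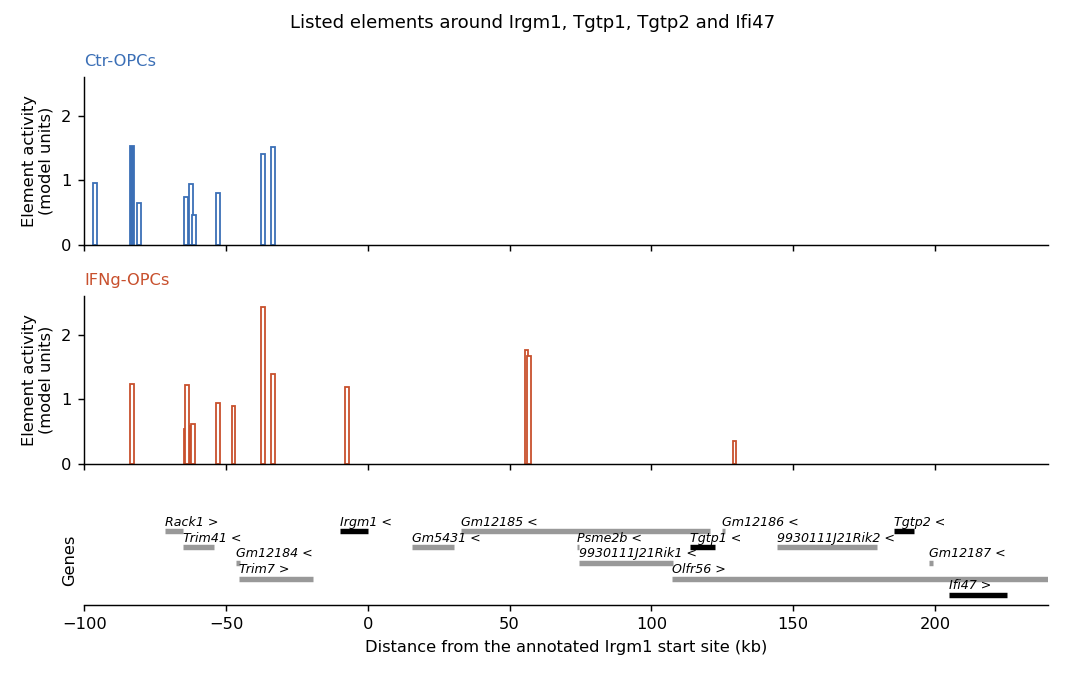
Listed elements by distance from the Irgm1 start (kb) across the cluster of Irgm1, Tgtp1, Tgtp2 and Ifi47 (black gene bars), in Ctr-OPCs (upper) and IFN-γ-OPCs (middle), with element activity in model units as height. The single filled bar, in Ctr-OPCs, is the element of Tgtp1, and 4 open bars lie inside the cluster in IFN-γ-OPCs against 0 in Ctr-OPCs.

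The cluster holds sequence copies. Words of 50 bases were counted in the 500 bases around the GENCODE start. Of these, 53.0% occurred elsewhere in the genome for Tgtp2, 10.4% for Tgtp1, 1.11% for Ifi47 and 0% for Irgm1. The RefSeq start of Tgtp1, with the printed promoter, lies 1.93 kb downstream of the start that the model used. It falls in the window around the GENCODE start of Gm12185, where the share was 36.8%. Over the gene bodies the shares were 71.6% for Tgtp2 and 59.6% for Tgtp1. The shares at the start were 37.9% for Igtp, 50.8% for Irgm2 and 42.1% for Iigp1, where 5.99% of 21938 protein-coding genes exceeded 50%. The elements themselves were mostly unique. For the 6 elements of Igtp and Irgm2 the share was 0% to 4.59%, and for those of Iigp1 1.55% to 18.6%. For the 4 elements inside the cluster with IFN-γ it was 0% to 17.5%. Over all elements of IFN-γ-OPCs the median share was 0%, and 0.0808% of elements exceeded 50%. The part of repeated sequence in the absence of Tgtp2, Irgm1 or Ifi47 from the tables was not tested.

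Of 10 other IRG genes and pseudogenes, 4 were listed, 1 of them without IFN-γ and all 4 with it, so that 3 of the 10 were listed in IFN-γ-OPCs alone, as were 19.6% of all genes. Connections numbered 1 and 4, and the 3 added ones were those of Gm12250, the 1 gene of the 10 with more, where 14.9% of all genes had more. Gm4951, on chromosome 18, had 3 pairs in IFN-γ-OPCs alone with scores of 0.0249 to 0.0340 and a quantile of 0.919. Irgc1, known from testis, had 4 pairs there with scores of 0.0212 to 0.0442. Irgq, a quasi-GTPase that lies beside Irgc1, had totals of 1.57 and 1.27 (log2 ratio −0.30) and 1 connection in each table. Gm12185, Gm12187, Gm5431, 9930111J21Rik1, 9930111J21Rik2 and F830016B08Rik were in neither table. Gm4841 was not among the 10.

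The receptor, kinases and factors that carry the IFN-γ signal to these genes were listed for 7 of the 9 genes examined. Of these, 2 had more connections in IFN-γ-OPCs and none fewer, where 14.9% of all genes had more. Irf1, a transcription factor that IFN-γ induces, went from no listed pair to 7 pairs and 1 connection, with a total of 1.56 and a quantile of 0.992. Socs1, the feedback inhibitor of JAK kinases, had 0 and 1 connections and totals of 1.17 and 1.598 (log2 ratio 0.46). For the 6 of them found in both tables, the median log2 ratio of the total was 0.13, from −0.08 for the receptor gene Ifngr2 to 0.46, and none reached 1.5-fold, as 0.615% of all genes did. Jak1 and Irf8 were in neither table.

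The autophagy-related genes whose products load IRG effectors on membranes, or keep them off, had no member with more connections, which at 14.9% of all genes is no result about 11 genes. Of these 11, 10 were listed, connections numbered 3 in both conditions, and the median log2 ratio of the total over 8 genes was −0.11, from −0.32 for Map1lc3a to 0.16 for Atg12. This lies close to the median of −0.07 over all genes.

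By log2 ratio of the total, change in connections and change in listed pairs, each divided by its SD over all genes, the 5 protein-coding genes over 1 Mb away that came nearest to Igtp and Irgm2 were Rgs1, Elf4, H2-Aa, H2-Ab1 and Hmgcs1. Their distances on this scale were 0.965, 1.24, 1.38, 1.47 and 1.56, over 2 conditions. H2-Aa, a chain of MHC class II, had totals of 1.34 and 2.09, and H2-Ab1, its partner chain, 1.36 and 2.29. Both had 0 and 2 connections, as did Igtp and also Hmgcs1, an enzyme of sterol synthesis with totals of 0.465 and 0.609. Elf4 had totals of 0.171 and 0.235 and 1 and 3 connections. For Rgs1 the totals were far lower, 0.0869 and 0.125, with 2 and 4 connections.

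All 6 OPC marker genes (Pdgfra, Cspg4, Olig1, Olig2, Sox10 and Gpr17) were listed in both conditions, with 13 and 12 connections. Of 8 microglia markers, 4 were listed without IFN-γ and 6 with it, where Aif1 and Tmem119 were added with promoter quantiles of 0.471 and 0.744, while C1qa and Itgam were in neither and connections numbered 2 and 0. At 19.6% of all genes listed in IFN-γ-OPCs alone, these 2 of 8 are no result about the markers. Quantiles of the listed microglia markers were 0.473 to 0.802 without IFN-γ and 0.471 to 0.825 with it. The total of P2ry12 had a log2 ratio of 0.51, above the 95th percentile of 0.30 over all genes, and the quantile of Csf1r went from 0.473 to 0.625. Of 4 astrocyte markers 3 were listed in both conditions, with log2 ratios of the total of 0.36 for Slc1a3 (2 and 4 connections), −0.15 for Gfap (1 and 1) and −0.11 for Aldh1l1 (1 and 0). Of 4 neuron markers 4 were listed in both. The part of other cell types in the values of the IRG genes was not tested.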

How the data were processed

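Symbols and start sites came from GENCODE M21 (GRCm38), and positions are 1-based. By the study's methods, HiC-Pro aligned the reads to mm10 and removed duplicates, and the ABC model combined ATAC-seq and H3K27ac CUT&RUN of each condition with H3K27ac-HiChIP contact in 5 kb bins, at default settings for elements and activity. Libraries were grouped by the treatment in their titles, and the 3 libraries of a condition share 1 table.

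The authors deposited element activity as a signal, computed from the coverage of open chromatin and H3K27ac. The deposited ABC score is a fraction of the gene total. The promoter quantile, contact (also after addition of a pseudocount), power-law contact and score, and product of activity and contact are further score columns the authors deposited. How the authors scaled them between conditions is not given in the sources used here. The depth behind the values is unknown. The short tables and interaction lists held the same pairs and were not used.

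From these, connections (score above 0.05), gene totals (product over score, median over a gene's pairs) and element overlaps (at least 1 bp) were computed on whole tables. A total was called higher from 1.5-fold. As no pair of a member matched between conditions, no ratios of activity and contact were formed over member pairs. Named genes were the 7 members, genes within 100 kb that share an element with them, the lists given, and the 5 genes nearest in pattern. Gm12186, Trim7, Gm12184 and other targets of elements at the loci were named after their values were seen. A further pathway gene was left out of the list's counts and is not reported here. The genes were taken by name, but the family and the lists were chosen with earlier results of these data known. Promoters (RefSeq, GRCm38.p6) were compared by global alignment (match 2, mismatch −2, gap −3). Words of 50 bases were counted on both strands of the chromosomes. Calls and matches were tested on simulated data, built by changing known genes of the untreated table. Alternatives changed the cut-off (0.03, 0.1 or all pairs), the score, the scaling and the genes. Python 3.11.15, pandas 2.3.3, NumPy 2.4.6, numba 0.67.0 and matplotlib 3.10.9 were used.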

Additional observations from a re-analysis of the deposited data

How the results depend on the processing

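Without IFN-γ the 7 genes had 0 connections and with it 5, for 3 of them the number was higher, 2 elements were connected with 2 or more of them, and the median log2 ratio of the gene total was 0.65 over 2 genes. With a cut-off of 0.1, IFN-γ-OPCs had 0 connections, 0 genes with more and 0 shared elements. Over all deposited pairs the counts were 3 pairs without IFN-γ, 15 with it and 6 shared elements. With Igtp and Irgm2 counted once, an alternative chosen after seeing the data, IFN-γ-OPCs had 3 connections, 2 genes with more and 0 shared elements. With a cut-off of 0.03 IFN-γ-OPCs had 7 connections, with the power-law score 6, and with the 11648 top-scoring pairs of each condition it had 5. Without Tgtp1 and Tgtp2 no value could move, as neither had a connection or a ratio. The log2 ratio of the total was 0.70 after division by each table's median. Taking the top-scoring pair alone, or Igtp and Irgm2 once, returns the same ratio by construction. Median log2 ratios of element activity and contact gave no value under any alternative, as 0 member pairs matched between tables. No paired analysis was possible because the 3 libraries of a condition were merged before deposit, and for the same reason no library could be left out. Listing starts at a score of 0.02 of a gene's own total, so a rising total raises the product an element needs.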
